A study of Mus musculus with 130 samples.

Results

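Mitochondrial protein import is carried here by 37 genes: all genes whose symbol begins with Timm or Tomm followed by a digit, together with Pam16, Dnajc19, Grpel1, Grpel2, Pmpca, Pmpcb, Samm50, Mtx1, Mtx2, Hspd1 and Hspe1. They were matched by name among the 36134 genes of the series, and the set was chosen with earlier results of these data known. Single mouse embryos at the 2-cell stage were sequenced one by one after culture with SR1848 (n = 80) or without it (n = 50), and the series asks what the nuclear receptor Nr5a2 contributes to activation of the zygotic genome. SR1848 is a small-molecule inhibitor of Nr5a2 (also called LRH-1). B6129F1 zygotes isolated at 5 hours post fertilization were given, from 6 hours on, either 10 µM SR1848 or 0.1% DMSO, in medium without an oil overlay, and the DMSO embryos are called controls below. Libraries were made by Smart-seq2, in which full-length cDNA is amplified from polyadenylated RNA after oligo-dT priming. The labels do not say which embryos shared a mother, a culture drop or a plate, so the p-values measure the spread between these embryos, and any difference in handling between the groups cannot be told apart from the effect of SR1848.

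Nearly all mitochondrial proteins are encoded in the nucleus, made in the cytosol and carried into the organelle as precursors. Precursors enter through the TOM complex of the outer membrane and are then sorted: barrel proteins of the outer membrane go to the SAM complex, carrier proteins of the inner membrane are escorted by the small TIM chaperones to the TIM22 complex, and precursors with a cleavable presequence pass through the TIM23 complex, pulled in by the import motor PAM. In the matrix the processing peptidase removes the presequence, and the chaperonin of Hspd1 (HSP60) and Hspe1 (HSP10) folds many of the arrivals. Before the zygotic genome is switched on, an embryo lives on mitochondria and messages stored in the egg.

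Most import genes fell with SR1848, and a small set rose. Of the 37 genes, 34 passed the filter on low counts and were tested with edgeR's quasi-likelihood test. At a Benjamini-Hochberg adjusted p under 0.05, 23 of the 34 (67.6%) were lower with SR1848, where 36.5% of all 13222 genes tested were lower. Another 8 (23.5%) were higher, where 45.6% of all genes tested were higher, and 3 did not pass. Since 82.1% of all genes tested were called in one direction or the other, being called says little by itself here. The median log2 fold change was -1.86 over the 34 tested genes and 0.24 over all genes tested, a difference of -2.10. In 5 of the 34 (14.7%), Timm22, Pmpca, Timm13, Tomm22 and Timm17a, every SR1848 embryo lay below every control, which holds for 1.69% of all genes tested. In 0 of the 34 did every SR1848 embryo lie above every control, as in 0.0151% of all genes tested. A fall of at least 4-fold was found in 12 of the 34 (35.3%), and in 11.8% of all genes tested. The higher calls depend on how embryos are scaled to each other: with totals of oocyte-stored transcripts in place of edgeR's TMM factors (trimmed mean of M-values), 32 import genes were lower and 0 were higher, and Hspe1 was the only one of the 8 still above 0 (log2 fold change 0.07, adjusted p = 0.64). The other 7 changed sign under that scaling, whose sum came to 56.7% from Zbed3 and Spin1. Oocyte scaling in the gene values below means this sum. With the geometric mean of the same transcripts, Tomm34 and Timm10b did not change sign. Of the 23 lower calls, 22 held in all 14 alternative settings, the exception being Timm23. Oocyte scaling moved values downward, because 40 of the 46 tested genes it rests on were higher with SR1848. It could therefore remove higher calls but not lower ones, and is no check on the lower calls.

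**Figure D1:**
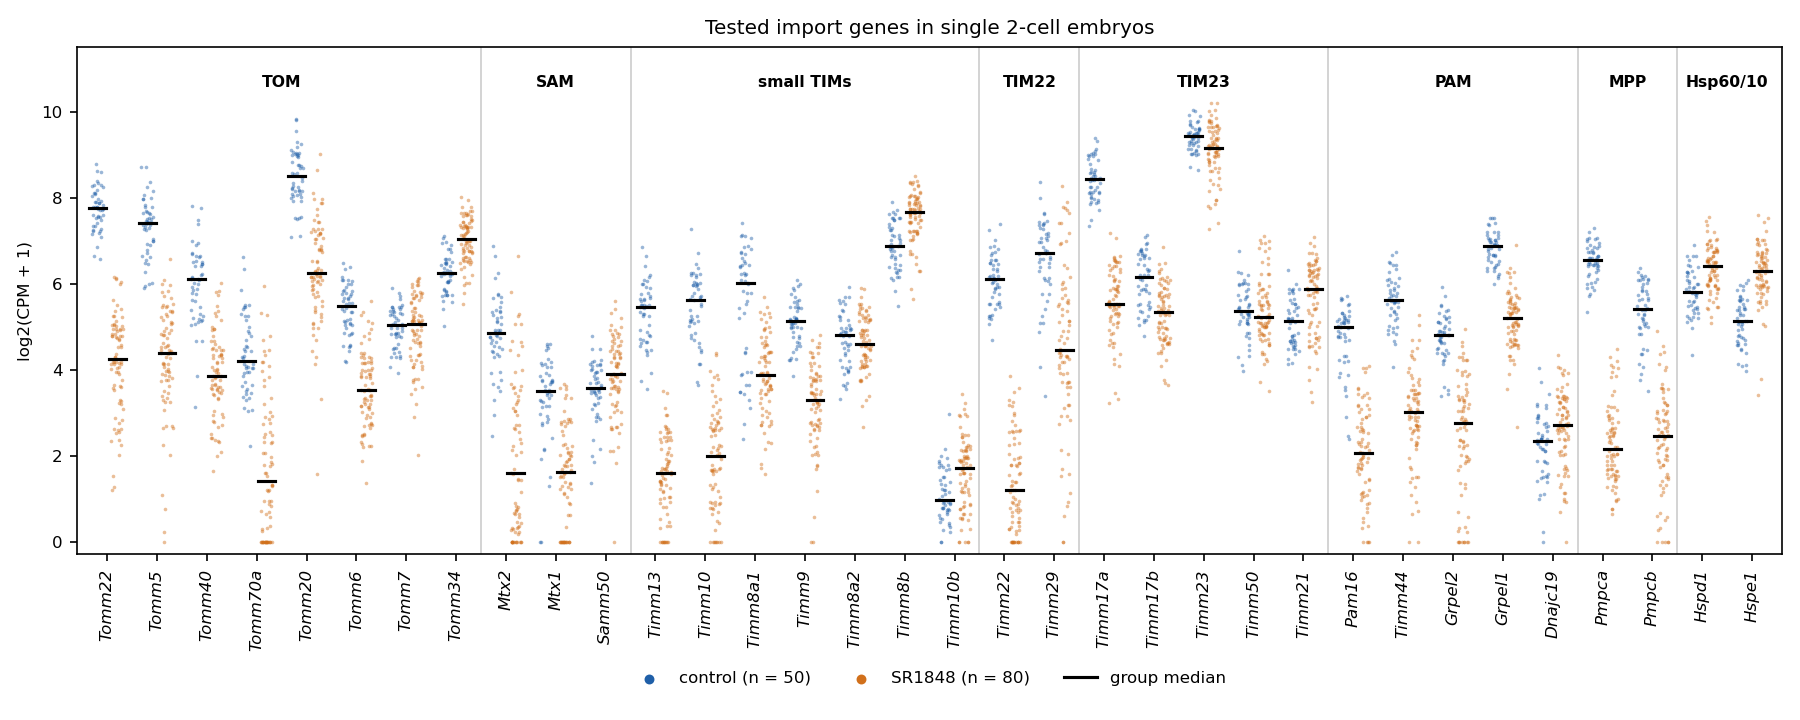
Level of each tested import gene in single embryos as log2(CPM + 1), where CPM is the count scaled to the TMM-adjusted library size, with control embryos (n = 50) in blue and SR1848 embryos (n = 80) in orange, black bars at the group medians and genes grouped by role. The clouds of Timm22, Pmpca, Timm13, Tomm22 and Timm17a do not overlap, while those of Timm23, Tomm7, Timm50 and Timm8a2 largely do.

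The libraries behind these values held 2730852 to 7824458 estimated counts with SR1848 and 3173683 to 8438537 in controls. A count of 0 in an embryo allows a level of up to 0.35 to 1.27 CPM (3 counts) at these depths, which covers counting error only. Cleavage-stage markers were present in every group, with a summed level of 297.7 to 1018 CPM in controls and 195.9 to 4406 CPM with SR1848. With TMM scaling 7 of the 8 rose, where 45.6% of all genes tested were higher. Oocyte-stored markers summed to 660.7 to 1722 CPM in controls and 1100 to 4995 CPM with SR1848, with 7 of 8 higher, and their part in the import results was not tested. Cumulus-cell markers stayed at 0 to 28.1 CPM and sperm markers at 0 to 12.1 CPM when summed over 10 and 7 genes, and the blood list rose from a median of 34.7 to 210.1 CPM through Hba-a1 and Hba-a2 while Hbb-bs and Hbb-bt were at 0 in all controls.

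The 4 genes that mark the ends of the range are shown with the sequence before their start, because the response differs so widely between them: Timm22, Pmpca and Timm13 have the largest falls of the set and Hspe1 the largest rise. Sequences are from RefSeq on GRCm38.p6 and read 5′ to 3′ on the gene's strand. For Timm22 they are the 250 bases before the start, chr11:76406675-76406924, plus strand. For Timm13 they are 233 bases, chr10:80900970-80901202, minus strand. For Pmpca (chr2:26389285-26389314, plus strand) and Hspe1 (chr1:55088058-55088087, plus strand) only 30 bases around a match are given, since 107 and all 250 of the 250 bases before the start are annotated as untranslated sequence, mostly of the neighbours Entr1 and Hspd1, and the printed bases lie in it. Capitals mark CCGGAAG, the ETS site bound by GABP, CGCATGCG, the core of the site bound by NRF1, and TATAAA, the letters of the TATA box. Each was sought on either strand, and a match shows the letters only, not a site in use.
Timm22: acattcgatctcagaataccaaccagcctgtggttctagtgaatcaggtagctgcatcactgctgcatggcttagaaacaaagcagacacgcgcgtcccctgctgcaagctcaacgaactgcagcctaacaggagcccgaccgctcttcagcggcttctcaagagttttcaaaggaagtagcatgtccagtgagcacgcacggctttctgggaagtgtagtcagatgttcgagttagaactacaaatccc
Pmpca: gctcggcgggCCGGAAGccagcgccgaacg
Timm13: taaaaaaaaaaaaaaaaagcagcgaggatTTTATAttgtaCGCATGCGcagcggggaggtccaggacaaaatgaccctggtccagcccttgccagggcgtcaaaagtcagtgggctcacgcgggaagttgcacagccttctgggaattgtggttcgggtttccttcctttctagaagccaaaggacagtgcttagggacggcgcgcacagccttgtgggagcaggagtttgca
Hspe1: gttctagaacCTTCCGGAAGgccccgcgcg

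In Hspe1 the capitals hold CCGGAAG on both strands in overlap, beginning at -80 and -77 from the RefSeq start. The Pmpca match begins at -53, and in Timm13 the CGCATGCG match begins at -193 and the TATAAA match, on the other strand, at -204. No letters of the motifs searched were found in the 250 bases before Timm22, which says only that these letters are not in this window. Of the 37 genes, 32 have an entry in the RefSeq promoter table, which spans 250 bases before to 50 after each start, 22 of them lower and 7 higher with SR1848. CCGGAAG lay in 15 of the 32 windows, where 9.12% of all 27025 promoters hold it. Both directions shared that feature, with a match in 10 of 22 windows of lower genes and in 4 of 7 of higher genes. TCAAGG, the half-site of Nr5a2, was in 3 windows (Pam16, Timm44 and Timm8b) and in 14.5% of all promoters. Its longer form TCAAGGTCA, which contains TCAAGG, was in the Timm8b window and in 0.407% of all promoters, and the other long form TCAAGGCCA was in 0 of the 32 and in 0.592% of all. CGCATGCG was found in Timm13 (1.91% of all), GCCATNTTG, the YY1 site, in Mtx1, Samm50, Timm44 and Timm50 (2.65%), and TATAAA in Dnajc19, Timm13 and Tomm5 (14.2%). The windows of the import genes were richer in G and C, with a median of 59.2% against 52.7% over all promoters. CCGGAAG is itself rich in these letters, and the part this plays in the counts was not tested.

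At the outer membrane, 6 of the 8 tested TOM genes fell, Tomm34 rose and Tomm7 did not pass. Tomm22, a receptor that also organizes the complex (ENSMUSG00000022427, chromosome 15, 79670861 to 79673400, plus strand, GENCODE M21 on mm10), ranged from 94.1 to 438.2 CPM in controls with a median of 216.3. With SR1848 it ranged from 1.29 to 69.7 CPM with a median of 17.8. All 80 treated embryos were below every control. The fitted fall was 10.1-fold (log2 fold change -3.34, SE 0.167, edgeR adjusted p = 1.7e-40). Tomm20, the receptor that recognizes presequences and the most abundant TOM gene per transcript length in controls (chromosome 8, 126930667 to 126945844), went from 134.6 to 899.6 CPM, median 362.7, to 1.98 to 512.2 CPM, median 74.7. The groups overlapped for Tomm20, with 59 of 80 treated embryos below every control, and the log2 fold change was -1.93 (SE 0.167, edgeR adjusted p = 3.7e-21). A copy elsewhere, Gm14494, is 99.54% identical over 435 bases and had means of 125.9 CPM in controls and 29.99 CPM with SR1848. Summed with its near copies, Tomm20 had a log2 fold change of -1.97. Its per-length rank rests mainly on the short Tomm20-202 (458 bases, 121.2 CPM in controls), less on Tomm20-201 (4902 bases, 270.9 CPM).

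Small subunits of the TOM pore went different ways. Tomm5 ranged from 58.4 to 419.2 CPM in controls (median 170.1) and from 0 to 94.1 CPM with SR1848 (median 20.04), so that 76 of 80 treated embryos were below every control (log2 fold change -2.85, SE 0.185, edgeR adjusted p = 2.6e-30). Tomm6 fell by 1.76 on the log2 scale, from a mean of 44.7 ± 17.7 to 13.2 ± 9.05 CPM (SD). Tomm7 stood at 32.4 ± 10.4 CPM in controls and 33.1 ± 16.6 CPM with SR1848 (log2 fold change 0.03, SE 0.126, edgeR adjusted p = 0.83), and under oocyte scaling its value was -0.99 (adjusted p = 5.2e-08). Tomm40 encodes the channel itself. Its controls spread widely, from 7.76 to 220.9 CPM around a median of 67.4, and the treated embryos lay between 2.10 and 63.4 CPM around a median of 13.5. Only 17 of 80 treated embryos were below every control although all 80 were below the control median (log2 fold change -2.09, SE 0.17, edgeR adjusted p = 7.7e-23).

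Tomm34, a cytosolic co-chaperone that hands precursors to the import machinery, was the TOM-named gene that rose. Controls ranged from 31.3 to 137.4 CPM (median 74.8) and SR1848 embryos from 44.8 to 257.1 CPM (median 129.6). The ranges overlapped, yet 73 of 80 treated embryos were above the control median and 38 above every control. The log2 fold change was 0.81 (SE 0.0921, edgeR adjusted p = 2.9e-14) and turned to -0.36 (adjusted p = 0.00018) under oocyte scaling. Tomm70a, the receptor for carrier precursors, was uneven among treated embryos: they ranged from 0 to 60.3 CPM with a median of 1.68, against 3.67 to 97.8 CPM with a median of 17.4 in controls. Of the treated embryos 50 were below every control and 8 at or above the control median (log2 fold change -1.997, SE 0.348, edgeR adjusted p = 1.3e-07). Tomm20l and Tomm40l, relatives of Tomm20 and Tomm40, were near 0 in both groups (means 0.224 to 0.392 CPM) and were not tested.

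In the SAM complex, the metaxins fell and the barrel subunit rose slightly. Mtx2, the most abundant SAM gene per transcript length in controls (chromosome 2, 74825803 to 74878431), ranged from 4.51 to 116.6 CPM in controls (median 27.7) and from 0 to 99.3 CPM with SR1848 (median 2.001). Low values prevailed with SR1848, 48 of 80 embryos being below every control and 14 at 0, but 6 embryos were at or above the control median (log2 fold change -2.04, SE 0.344, edgeR adjusted p = 5.2e-08). The per-length rank of Mtx2 rests largely on the retained-intron Mtx2-202 and Mtx2-203 (728 and 954 bases), less on the coding Mtx2-201 (2950 bases). Mtx1 fell by 1.88 on the log2 scale, from 10.7 ± 5.93 to 2.91 ± 3.004 CPM. Samm50, the channel of the complex, had a range of 1.55 to 26.5 CPM (median 10.9) in controls and of 0 to 47.6 CPM (median 13.9) with SR1848. The groups overlapped almost wholly, the log2 fold change of 0.48 (SE 0.163, edgeR adjusted p = 0.0049) no longer passed with total-count scaling, limma-voom or detected genes as a covariate, and it was -0.70 under oocyte scaling.

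**Figure D2:**
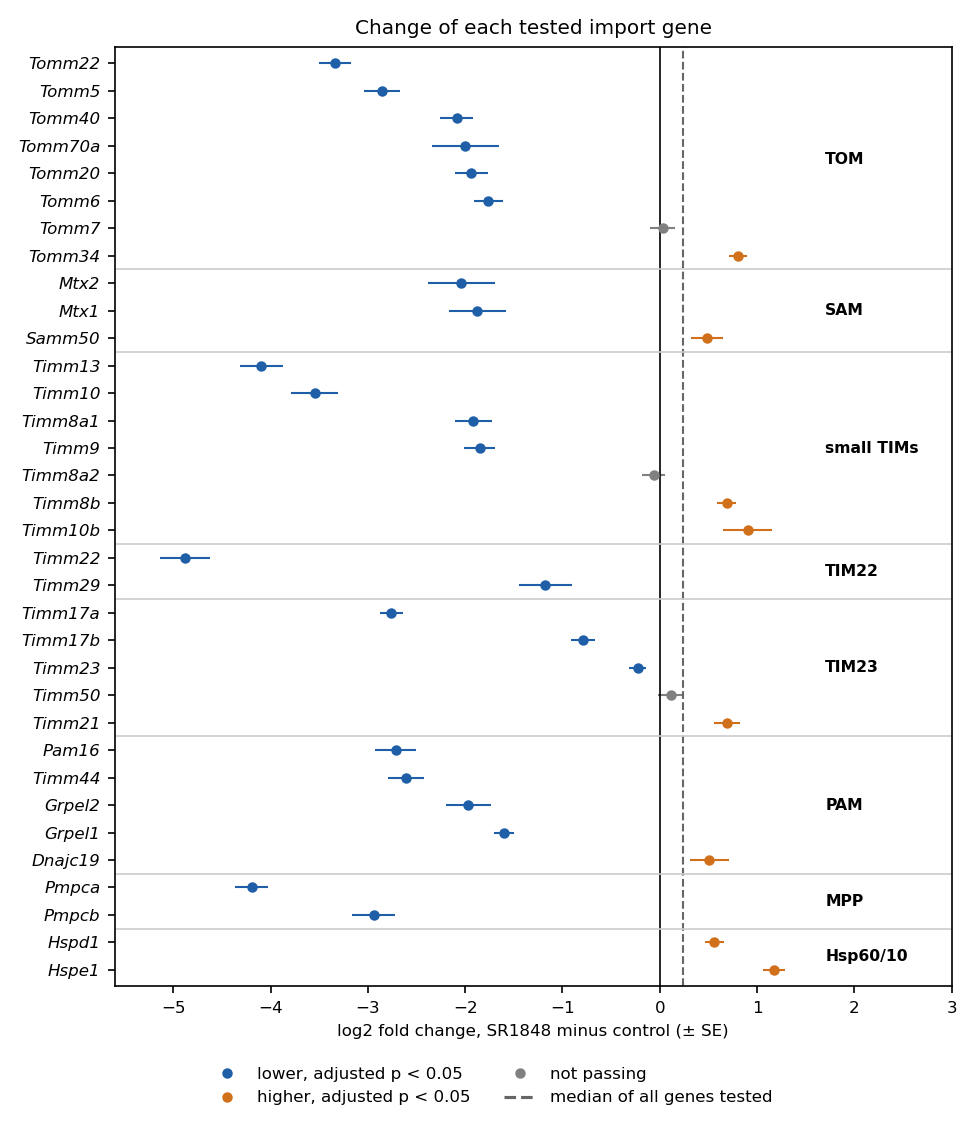
Fitted log2 fold change (SR1848 minus control) with its standard error for the 34 tested import genes by role, colored by call at an adjusted p under 0.05, with the median of all genes tested (0.24) as a dashed line. Points reach from -4.88 for Timm22 to 1.17 for Hspe1, and the points right of 0 are those that change sign or no longer pass under oocyte scaling.

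The small TIM chaperones of the space between the membranes work as partners, Timm9 with Timm10 and Timm8a1 with Timm13. These 4 fell, Timm8a2 did not pass, and Timm8b and Timm10b rose with TMM scaling but had a negative value under oocyte scaling. Timm13 (ENSMUSG00000020219, chromosome 10, 80899450 to 80900969, minus strand) ranged from 10.61 to 115.1 CPM in controls (median 42.7) and from 0 to 10.4 CPM with SR1848 (median 2.01). The groups did not overlap, and the fitted fall was 17.1-fold (log2 fold change -4.10, SE 0.222, edgeR adjusted p = 3.6e-37). Timm10 went from 11.4 to 153.7 CPM (median 48.1) to 0 to 19.9 CPM (median 2.97), with 73 of 80 treated embryos below every control (log2 fold change -3.55, SE 0.242, edgeR adjusted p = 1.6e-28). Its partner Timm9 fell less, by 1.85 on the log2 scale (SE 0.159), from 35.4 ± 12.7 to 9.82 ± 6.09 CPM. Per transcript length, Timm9 made up a median of 38.1% of the Timm9 and Timm10 total in controls and 71.6% with SR1848.

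Timm8b, the most abundant small TIM per transcript length and a relative of Timm8a1, rose. Controls lay between 43.7 and 238.8 CPM (median 115.7) and SR1848 embryos between 48.8 and 362.7 CPM (median 200.1). The ranges overlapped, with 21 treated embryos above every control and 71 of 80 above the control median. The log2 fold change was 0.69 (SE 0.1, edgeR adjusted p = 6e-10), and -0.41 (adjusted p = 0.00019) under oocyte scaling. Set against Timm13, Timm8b made up a median of 82.1% of their per-length total in controls, with a range of 51.4 to 97.7%, and 99.1% with SR1848, with a range of 93.4 to 100%. That ratio within an embryo does not depend on how embryos are scaled to each other.

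Timm8a1, whose human counterpart is mutated in a deafness and dystonia syndrome, ranged from 4.25 to 167.5 CPM in controls (median 63.1) and from 1.98 to 50.4 CPM with SR1848 (median 13.8). All 80 treated embryos were below the control median and 6 below every control (log2 fold change -1.92, SE 0.19, edgeR adjusted p = 1.5e-17). A copy elsewhere, Gm9797, is identical over 612 bases and had means of 42.7 and 4.22 CPM, so the split between them is uncertain, and summed with the copy the log2 fold change was -2.34. Timm8a2 did not pass, at 27.2 ± 12.1 and 26.1 ± 11.4 CPM (log2 fold change of -0.06 with SE 0.119, edgeR adjusted p = 0.62), and was lower under oocyte scaling (-1.13, adjusted p = 3.2e-15). Timm10b, a small TIM that docks to the carrier translocase, was scarce. It ranged from 0 to 6.84 CPM (median 0.948) in controls and from 0 to 9.79 CPM (median 2.27) with SR1848, overlapping throughout (log2 fold change 0.91, SE 0.252, edgeR adjusted p = 0.00066, and -0.29 under oocyte scaling). Timm10b shares 376 exonic bases with Gm45799 on the same strand, which had means of 0.49 CPM in controls and 1.13 CPM with SR1848. How reads of this pair were divided is uncertain.

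**Figure D3:**
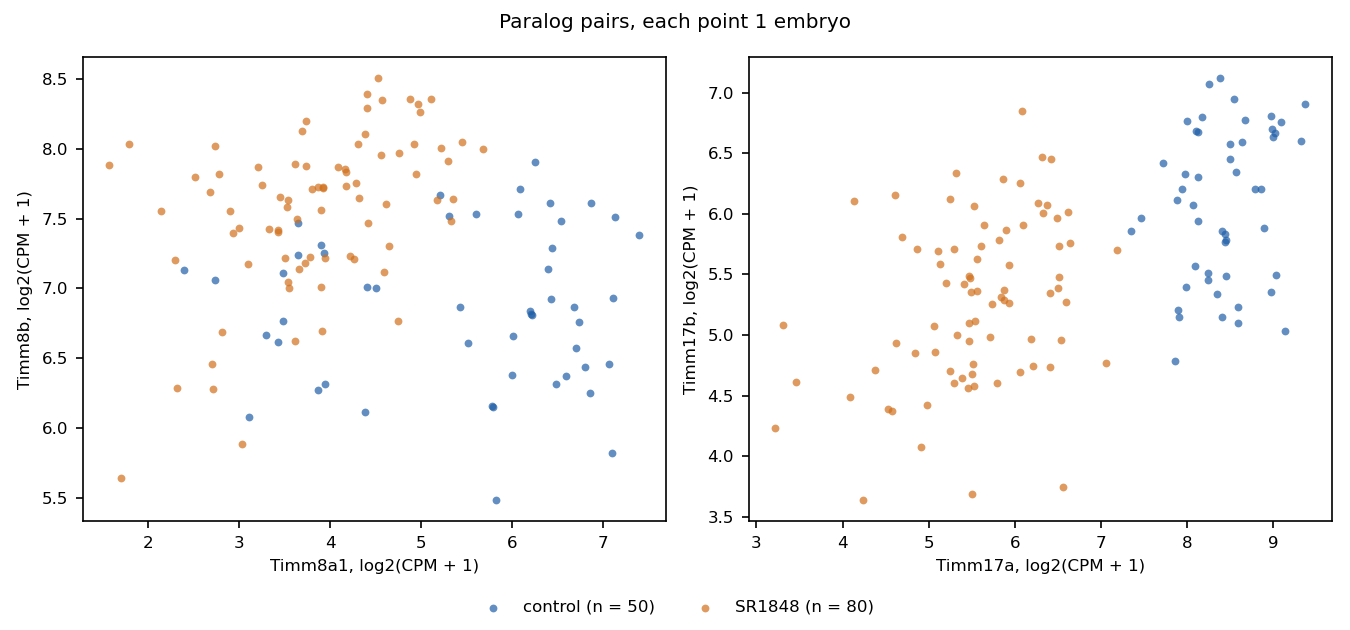
Each point is 1 embryo (control blue, n = 50, SR1848 orange, n = 80) with log2(CPM + 1) of Timm8a1 against Timm8b on the left and of Timm17a against Timm17b on the right. SR1848 embryos lie left of all controls for Timm17a and overlap them for Timm17b, and for Timm8a1 a part of the controls lies among the SR1848 embryos.

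The carrier translocase had the deepest fall of the set. Timm22, its channel subunit (ENSMUSG00000020843, chromosome 11, 76406952 to 76416292, plus strand), ranged from 24.7 to 166.6 CPM in controls with a median of 67.99 and from 0 to 13.5 CPM with SR1848 with a median of 1.302. No treated embryo reached the lowest control, and 13 of 80 had no count. The fitted fall was 29.4-fold (log2 fold change -4.88, SE 0.261, edgeR adjusted p = 8.6e-38). Timm22 and Timm23 are related channel proteins of the inner membrane, and per transcript length Timm22 made up a median of 8.32% of their total in controls and 0.174% with SR1848.

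Timm29, an assembly factor of the same complex, was among the most uneven genes with SR1848. Controls ranged from 9.39 to 330.1 CPM (median 102.9) and treated embryos from 0 to 306.8 CPM (median 20.8). Only 18 of 80 treated embryos were below every control, and 12 were at or above the control median (log2 fold change -1.18, SE 0.274, edgeR adjusted p = 5.5e-05). In all, 19 treated embryos reached the control median in Timm29, Mtx2 or Tomm70a, and 2 did so in all 3. Of the 6 embryos that reached it for Mtx2, 4 also did for Timm29 and 3 for Tomm70a, so that 5 of the 6 did for at least 1 of the other genes. Timm29 and Tomm70a had 2 such embryos in common, of 12 and 8. Timm29-ps1, a pseudogene that matches the naming rule, had no count in the 50 controls and 1 SR1848 embryo with any, and was not tested.

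The most abundant gene of the presequence translocase changed little with TMM scaling, and its partner fell. Timm23, the channel (ENSMUSG00000013701, chromosome 14, 32180162 to 32201898, minus strand), ranged from 399.5 to 1053 CPM in controls (median 687.3) and from 152.6 to 1180 CPM with SR1848 (median 569.0). It overlapped broadly, with 24 of 80 treated embryos above the control median. The change was small (log2 fold change -0.23, SE 0.0907, edgeR adjusted p = 0.017), did not pass with a filter of 5 CPM (-0.16, adjusted p = 0.081), and was 0.00406 (adjusted p = 0.97) with upper-quartile scaling. Under oocyte scaling Timm23 was lower by more, with a log2 fold change of -1.42 (adjusted p = 1.3e-31). Per transcript length Timm23 ranked first of the 37 genes in both groups. Timm17a, its close partner in the channel, was second in controls, a rank carried mainly by short transcripts. The retained-intron Timm17a-204 (565 bases) had a mean of 182.6 CPM in controls, and the coding Timm17a-201 (7280 bases) 129.8 CPM. Timm17a fell without overlap. It ranged from 162.0 to 662.2 CPM in controls (median 342.1) and from 8.30 to 144.0 CPM with SR1848 (median 45.3), a fitted fall of 6.77-fold (log2 fold change -2.76, SE 0.12, edgeR adjusted p = 2.2e-46).

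Timm17b, the X-linked paralog of Timm17a, fell much less, from 72.9 ± 30.4 to 42.2 ± 20.2 CPM (log2 fold change of -0.79 with SE 0.119, edgeR adjusted p = 1.6e-09), with 23 of 80 treated embryos below every control. The Timm17b share of the Timm17a and Timm17b total per transcript length had a median of 14.9% in controls and 39.5% with SR1848, and the ranges overlapped (5.22 to 28.1% and 7.22 to 83.3%). Timm21, which links the TIM23 complex to TOM and the respiratory chain, was higher: 16.6 to 78.9 CPM in controls (median 33.97) and 8.47 to 135.1 CPM with SR1848 (median 57.4). The groups overlapped, with 20 treated embryos above every control and 5 below every control (log2 fold change 0.69, SE 0.135, edgeR adjusted p = 2.2e-06), and the value was -0.45 (adjusted p = 0.00068) under oocyte scaling. Timm50, the receptor of the complex, did not pass, at 43.9 ± 18.2 and 47.5 ± 29.9 CPM (log2 fold change of 0.12 with SE 0.135, edgeR adjusted p = 0.43), with -0.97 (adjusted p = 1.7e-07) under oocyte scaling and 0.32 (adjusted p = 0.018) with upper-quartile factors.

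Of the 5 import motor genes, 4 fell. Pam16, which holds the motor's J-protein in check and was the most abundant motor gene per transcript length in controls (chromosome 16, 4616464 to 4624988), ranged from 4.24 to 51.8 CPM in controls (median 30.8) and from 0 to 15.9 CPM with SR1848 (median 3.15). All 80 treated embryos were below the control median and 51 below every control (log2 fold change -2.72, SE 0.209, edgeR adjusted p = 1.7e-24). A copy elsewhere, Gm9803, is identical over 534 bases and stood at 17.02 CPM in controls and 17.8 CPM with SR1848. Summed with that copy, the log2 fold change was -1.04 (edgeR adjusted p = 7.9e-18). The size of the Pam16 fall therefore depends on how the reads were divided. Pam16 is also identical over 439 bases to Glis2, which lies at the same locus on the other strand. Glis2 had means of 10.81 CPM in controls and 0.321 CPM with SR1848, and no strand is stated for the counting. The part of Glis2 reads in the Pam16 fall was not tested.

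Timm44, which tethers the motor to the channel, went from 15.6 to 105.3 CPM (median 47.7) to 0 to 37.8 CPM (median 7.03), and 71 of 80 treated embryos were below every control (log2 fold change -2.61, SE 0.181, edgeR adjusted p = 5.3e-28). Grpel1 and Grpel2 encode the nucleotide exchange factors of mitochondrial HSP70. Grpel1 fell from 115.7 ± 30.96 to 38 ± 17.9 CPM, with 73 of 80 treated embryos below every control, and Grpel2 from 27.8 ± 10.2 to 7.07 ± 6.45 CPM, with 59 below (log2 fold changes -1.60 and -1.97). Dnajc19, a J-protein of the motor, was scarce and moved slightly the other way, between 0 and 15.3 CPM in controls (median 4.02) and 0 and 19.2 CPM with SR1848 (median 5.56). Its groups overlapped throughout (log2 fold change 0.51, SE 0.201, edgeR adjusted p = 0.016), the call was lost with RLE or total-count factors and with detected genes as a covariate, and the value was -0.60 under oocyte scaling.

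In the matrix, both subunits of the processing peptidase fell. Pmpca, the subunit that binds the presequence (ENSMUSG00000026926, chromosome 2, 26389339 to 26397122, plus strand), ranged from 39.3 to 155.6 CPM in controls (median 92.0) and from 0.564 to 21.2 CPM with SR1848 (median 3.45). The groups did not overlap, and the fitted fall was 18.3-fold (log2 fold change -4.20, SE 0.173, edgeR adjusted p = 5.1e-49). Pmpcb, the catalytic subunit, ranged from 10.4 to 80.7 CPM in controls (median 41.6) and from 0 to 28.8 CPM with SR1848 (median 4.50). Here 68 of 80 treated embryos were below every control (log2 fold change -2.94, SE 0.219, edgeR adjusted p = 1.2e-25).

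Both chaperonin genes rose with TMM scaling, while under oocyte scaling Hspe1 did not pass and Hspd1 fell. Hspe1 and Hspd1 lie head to head on chromosome 1 (55088132 to 55091307, plus strand, and 55077835 to 55088243, minus strand) and share 112 exonic bases. Hspe1 ranged from 14.6 to 67.1 CPM in controls (median 33.9) and from 9.60 to 190.7 CPM with SR1848 (median 77.4). Of the treated embryos 50 were above every control and 2 below every control. The fitted rise was 2.26-fold (log2 fold change 1.17, SE 0.115, edgeR adjusted p = 9.2e-18), and 0.07 on the log2 scale under oocyte scaling. Hspd1 rose less, from 58.6 ± 21.1 to 86.2 ± 31.6 CPM with 12 treated embryos above every control (log2 fold change 0.56, SE 0.0975, edgeR adjusted p = 1.3e-07), and was lower under oocyte scaling (-0.64, adjusted p = 3.9e-09). Hspe1 made up a median of 59.2% of their per-length total in controls and 69.1% with SR1848.

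**Figure D4:**
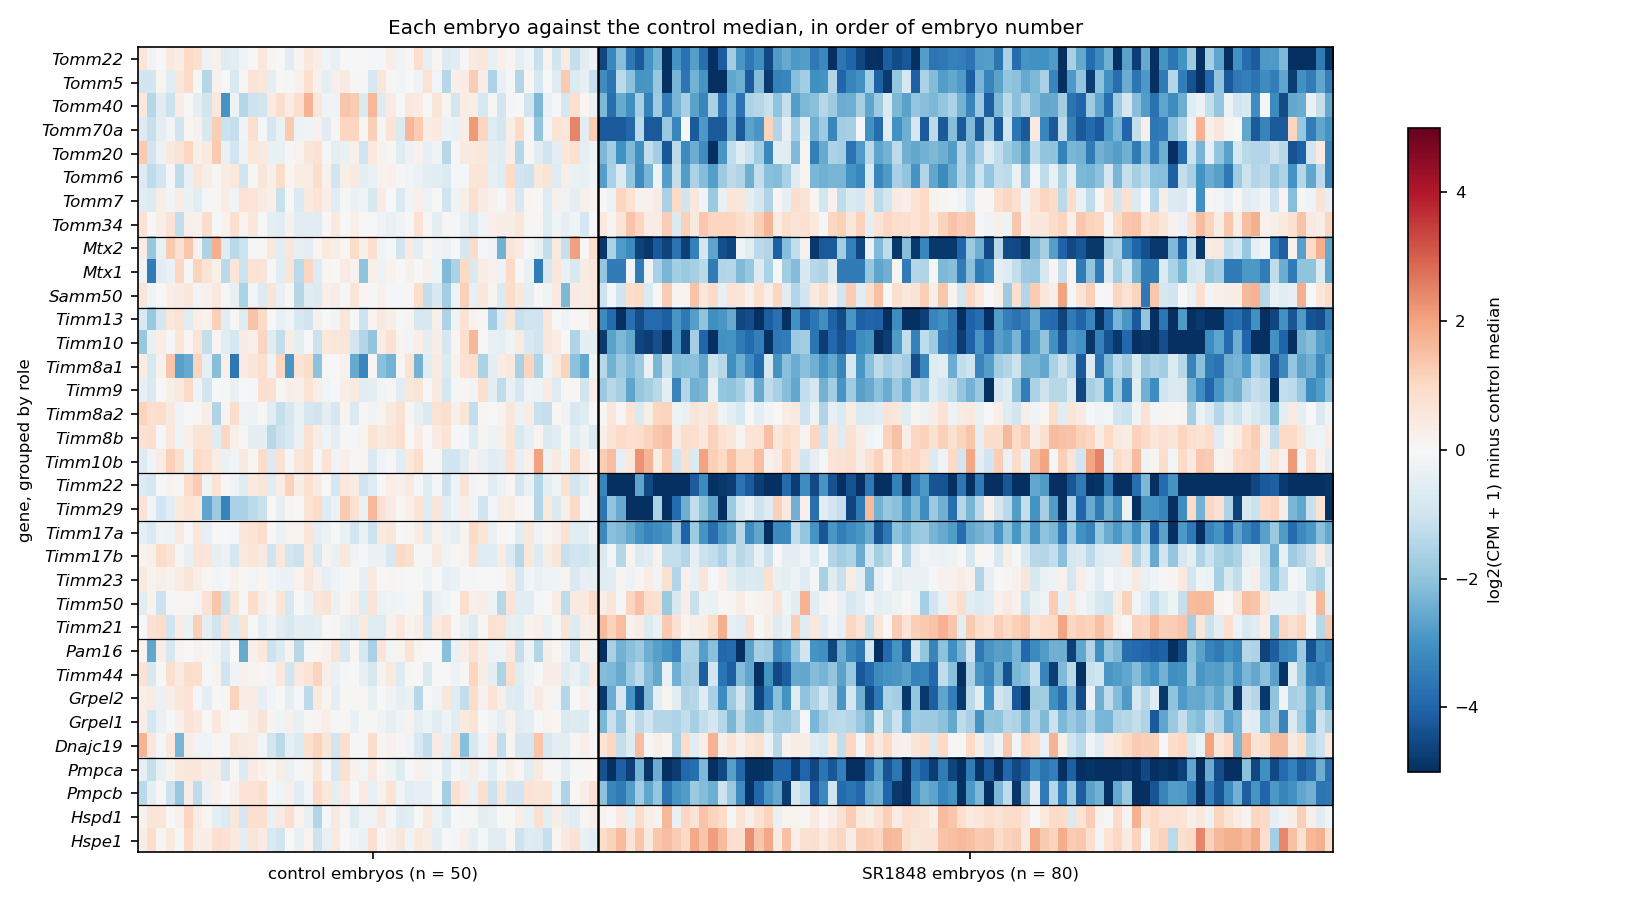
Each column is 1 embryo in order of its number (50 controls left of the line, 80 SR1848 embryos right of it) and each row 1 tested import gene, colored by log2(CPM + 1) minus the control median. Timm22, Pmpca, Timm13 and Tomm22 are blue in all SR1848 columns, Mtx2, Tomm70a and Timm29 vary between columns, and the red genes (Hspe1, Timm8b, Tomm34) are so relative to TMM scaling.

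Single treated embryos carried many of the falls at once. Of the 23 lower genes, a treated embryo had between 8 and 20 below every control, with a median of 16, and 31 of 80 embryos had all 23 below the control median. The summed per-length level of the import genes, on the scale of TPM, ran from 3416 to 7144 in controls (median 5261) and from 1159 to 4007 with SR1848 (median 2554). These ranges overlap at their ends. The make-up of that sum changed as well: the 23 lower genes held a median of 84.0% of it in controls and 52.3% with SR1848, and the 8 higher genes 13% and 41.6%. Membership in these sets follows from the same contrast. The counts per embryo and the shares therefore describe the change and are not a further test of it. No matching counts per embryo are given for the lower genes of the whole series. Per transcript length the leading genes in controls were Timm23 (mean 1032), Timm17a (745.9), Tomm20 (547.7), Tomm5 (461.2) and Timm8b (409.8). With SR1848 they were Timm23 (789.3), Timm8b (599.8), Hspe1 (165.0), Tomm20 (122.0) and Tomm34 (109.6). Short transcripts carry most of the Timm17a and Tomm20 levels on this scale.

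Single transcripts gave a finer view. Of 172 transcripts of the import genes, 61 were tested, and 43 were lower and 10 higher with SR1848 (35% and 38.5% of all 25761 transcripts tested were lower and higher). No gene had transcripts called in both directions. In the authors' deposited table, 67 of the 128 import transcripts with an adjusted p were lower at 0.05 and 12 higher, where 26.4% and 19.3% of all were. The long coding transcript Pmpca-201 fell from 86.0 ± 25.1 to 1.35 ± 2.77 CPM (log2 fold change -5.99, SE 0.378), while the shorter Pmpca-202 went from 6.93 ± 4.07 to 3.52 ± 2.76 CPM (-1.02, SE 0.204). Pmpca shares 874 exonic bases with Inpp5e on the other strand, whose mean was 7.84 CPM in controls and 21.7 CPM with SR1848, and no strand is stated for the counting, so reads of the pair cannot be told apart there.

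The small change of Timm23 was that of its main transcript. Timm23-201, 95% of the gene's counts in controls, moved by -0.24 on the log2 scale, while the minor Timm23-206, Timm23-202 and Timm23-203 fell by 4.05, 3.86 and 1.80. In Timm17b the main coding transcript Timm17b-201 did not pass (30.9 ± 14.8 and 26.9 ± 13.7 CPM, edgeR adjusted p = 0.072), while the retained-intron Timm17b-203 and the short Timm17b-202 fell by 1.47 and 1.59 on the log2 scale. All 3 tested Timm17a transcripts fell, the retained-intron Timm17a-204 from 182.6 ± 65.4 to 21.4 ± 13.2 CPM (-3.14) and the coding Timm17a-201 from 129.8 ± 43.3 to 24.7 ± 11.9 CPM (-2.44). Timm22-202 went from 20.6 ± 9.01 to 0.304 ± 0.662 CPM (-6.04). Of 8 retained-intron transcripts tested, 4 were lower and 2 higher, where 35% and 38.5% of all transcripts tested were. These are too few to set retained introns of the import genes apart, and shares over all retained-intron transcripts are not given.

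**Figure D5:**
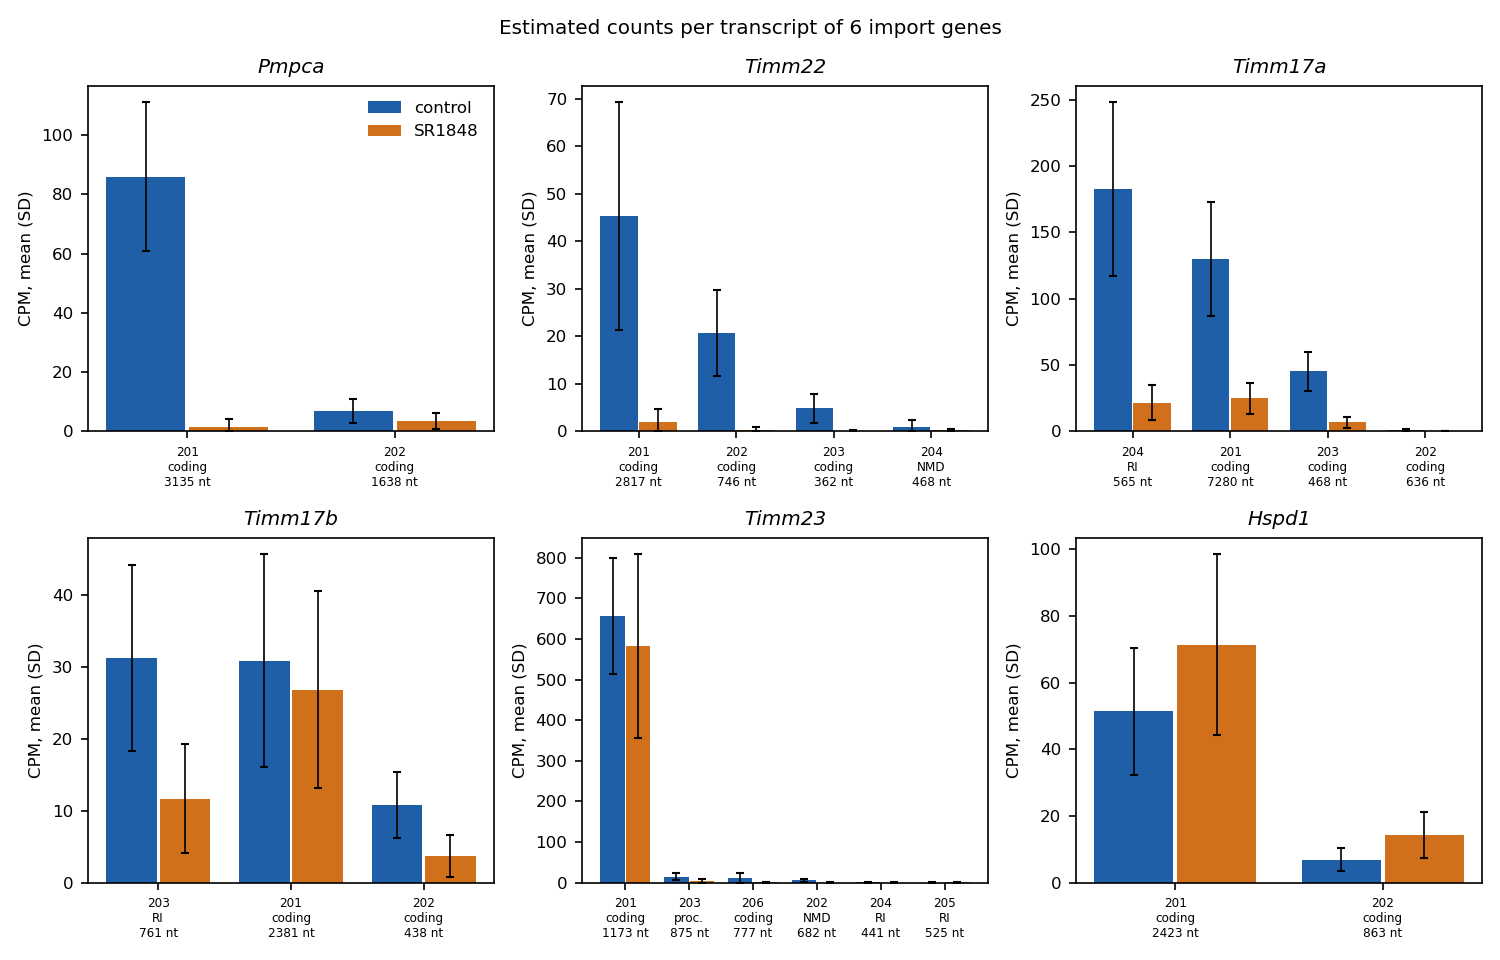
Mean CPM with SD (lower arms end at 0) of each transcript above 0.5 CPM of 6 import genes in controls (blue, n = 50) and SR1848 embryos (orange, n = 80), with the transcript number, class (RI retained intron, NMD nonsense-mediated decay, proc. processed) and length under the bars. Pmpca-201 and the Timm22 transcripts nearly vanish, Timm23-201 stays high in both groups, and Hspd1 transcripts rise relative to TMM scaling.

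Other genes of the pathway moved in both directions. Counts for the lists that follow are with TMM scaling only. They stand beside 36.5% lower and 45.6% higher among all genes tested. Among 14 tested genes of further import and processing steps, 8 fell and 6 rose (median log2 fold change -0.68). Dnajc15, a J-protein related to Dnajc19, fell from 58.6 ± 25.8 to 4.75 ± 3.52 CPM (log2 fold change of -3.61 with SE 0.19, edgeR adjusted p = 1.8e-38), and Hspa9, the motor's HSP70, from 275.1 ± 84.6 to 169.3 ± 69.4 CPM (-0.70). Of 11 genes for cristae junctions and outer membrane contacts, 6 rose and 2 fell (median 0.73). Micos13, a subunit of the cristae-organizing complex, fell by 1.60 on the log2 scale, and Vdac1, the outer membrane porin, did not pass (138.5 ± 35.6 and 152.9 ± 52.4 CPM). The 13 mitochondrial protease and quality-control genes split into 6 higher and 6 lower (median -0.35), with Clpx, the unfoldase of the ClpXP protease, going from 452.6 ± 131.6 to 29.1 ± 16.2 CPM (log2 fold change of -3.96 with SE 0.123, edgeR adjusted p = 9.4e-62).

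Genes for mitochondrial DNA upkeep and biogenesis had a low median as well, -1.51 over 12 tested genes with 8 lower and 3 higher. Gabpa, which encodes the DNA-binding subunit of GABP, was the most abundant of them and fell most, from 709.7 ± 164.1 to 71.1 ± 70.1 CPM (log2 fold change of -3.32 with SE 0.207, edgeR adjusted p = 8.4e-32). Among 14 cytosolic chaperones that hold precursors, 7 fell and 5 rose (median -0.30), with Hsp90aa1 going from 675.1 ± 105.5 to 388.5 ± 142.0 CPM (-0.80) and Ubqln2 from 4.54 ± 4.12 to 17.5 ± 20.6 CPM (1.94). Under oocyte scaling the median of all genes tested moved to -0.87 and that of the import genes to -2.94, a difference of -2.07. It lies near the -2.10 found with TMM by construction, since a scaling shifts every gene nearly alike. The likeness is therefore no further test.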

How the data were processed

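Polyadenylated RNA of 130 single embryos was sequenced, and groups were taken from the sample titles. Per the submitters' processing notes the authors used bcl2fastq, kallisto 0.46.1, Trim Galore 0.6.2, DESeq2 1.32.0 and R 3.5.1, and the notes list the builds mm10 and hg19 with no role. The authors deposited estimated counts per transcript (119358 entries), a log2 table, equal to log2(count / total-count factor + 1) and not used further, and a comparison table with log2 fold changes, p-values, a base mean signal and a test score, of which only fold changes and adjusted p-values were used. Estimated counts were summed per gene and rounded, and transcripts with no gene (0.735% of counts) and 5 other entries (0.0258%) stayed out. The design text lists more controls than the 50 used, and the others were not analysed here. edgeR 4.0.16 (R 4.3.3) was run with filterByExpr, TMM, robust glmQLFit and glmQLFTest, two-sided, adjusted over 13222 genes or 25761 transcripts, after checks on simulated data. Per-length levels divide counts by GENCODE M21 transcript lengths and scale them as TPM. Counts on short transcripts therefore weigh more in them than counts on long transcripts. Copies were sought with blastn 2.17.0 (at least 95% identity over 200 bases), which found 20 copies elsewhere of 12 members, and 20 members share exonic bases with another gene. Alternatives were RLE, upper-quartile, total-count and oocyte scaling, no filter or 5 CPM, DESeq2 1.42.0, limma-voom 3.58.1, depth or detected genes as a covariate, leaving out low embryos (1 SR1848, 0 controls) and the embryo number as a block. Scaling to the geometric mean of oocyte transcripts and summing near copies were added after seeing the data. The members and lists were chosen with earlier results of these data known. Every member is named or counted, with full values for the 12 largest called changes at 5 CPM or more, the leading gene per role, calls against the majority of a role and groups that do not overlap.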

Additional observations from a re-analysis of the deposited data

How the results depend on the processing

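The 23 lower and 8 higher calls became 22 to 23 lower and 6 to 9 higher under 12 of the 14 alternatives, and the median of the import genes stayed between 1.98 and 2.21 below that of all genes in all 14. Alternatives that change only the scaling could hardly move this difference, since they shift every gene nearly alike. Scaling to the sum of oocyte transcripts, 56.7% of which came from Zbed3 and Spin1, gave 0 higher import genes, a median of -2.94, and 1588 higher and 8214 lower genes of all. It turned Dnajc19 (-0.60), Timm21 (-0.45), Timm50 (-0.97), Hspd1 (-0.64), Samm50 (-0.70), Tomm34 (-0.36), Tomm7 (-0.99), Timm10b (-0.29) and Timm8b (-0.41). Scaling to their geometric mean gave 1 higher import gene, a median of -2.55 and 2891 higher genes of all, with Dnajc19 (-0.23), Timm21 (-0.17), Timm50 (-0.57), Hspd1 (-0.29), Samm50 (-0.33), Tomm7 (-0.73) and Timm8b (-0.0935) turned. Upper-quartile factors turned Timm23 (0.00406). Without a filter 10315 genes were higher and 7396 lower of all. The scalings act by construction on every gene alike, and which fits the total RNA per embryo was not tested. Embryos of the 2 groups share 50 numbers, but same-number deviations correlated by a median of 0.0189 (-0.192 to 0.124, 2 of 50 over 0.1), so the numbers do not pair embryos. With the replicate block, 22 import genes were lower and 7 higher (median -2.01), Timm23 and Dnajc19 no longer passing. Low counts limit Timm10b, Dnajc19 and the untested genes.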

Other observations

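Timm8a1, on the X chromosome (134537256 to 134541865, GENCODE M21 on mm10), left a gap among the 50 controls: 16 embryos lay at or below 21.7 CPM and 34 at or above 35.9 CPM. This was noticed after its values were seen. The Y-linked gene Eif2s3y had at least 1 count in all 16 embryos under the gap and in 12 of the 34 above it. In the 22 controls with no Eif2s3y count Timm8a1 ranged from 35.9 to 167.5 CPM, and in the 28 with a count from 4.25 to 136.4 CPM. Eif2s3y ran from 0.14 to 37.7 CPM in those 28, so 1 stray count could place an embryo among them. Gm9797, the copy of Timm8a1, ranged from 13.7 to 98.8 CPM without an Eif2s3y count and from 0.882 to 113.2 CPM with one. Timm17b, also X-linked, ranged from 56.0 to 138.2 CPM and from 26.7 to 107.3 CPM in the same embryos. With SR1848 the Timm8a1 range was 4.74 to 42.6 CPM in the 41 embryos with no Eif2s3y count and 1.98 to 50.4 CPM in the 39 with one. The labels give no sex, and none of these differences was tested.

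Timm29 was low in a run of neighbouring control numbers, also noticed after its values were seen. The 7 controls numbered 9 to 15 lay between 9.39 and 47.2 CPM, and the other 43 between 36.7 and 330.1 CPM, 1 of them below the top of that run. Among the SR1848 embryos, the 15 numbered 65 to 79 held 7 of the 12 embryos at or above the control median of Timm29, 5 of the 6 for Mtx2 and 5 of the 8 for Tomm70a. At least 1 of these genes reached its control median in 11 of those 15 embryos and in 8 of the other 65. Other members were uneven in the same run. Timm50 lay between 25.4 and 127.2 CPM there, though its highest treated value, 137.0 CPM, lay outside the run. The highest treated value of Tomm40 (63.4 CPM) and the lowest of Timm21 (8.47 CPM) fell within it. The labels tie no batch, plate or mother to these numbers, and none of these patterns was tested.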
